A study of Mus musculus with 6 samples.

Results

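The 200 largest H3K27me3 domains of ES49 are described here, a set of broad Polycomb-marked regions in a mouse Ewing sarcoma cell line. They were chosen by the H3K27me3 peak widths of ES49: peaks of chromosomes 1 to 19 less than 12500 bp apart were joined, the joined domains were ranked by the summed width of their peaks, and the 200 highest of 4706 were taken. The series mapped chromatin by ChIP-seq in ES48 and ES49, lines of EWS-FLI1-induced murine Ewing sarcoma on a Balb/c background, grown without special treatment. In ES49, antibodies against H3K27me3, H3K27ac and the FLAG tag of EWS-FLI1 were used, and in ES48 antibodies against H3K27ac and FLAG were used. ES49 input DNA is a further sample, not analysed here. Each line and antibody is 1 library with 1 peak list, so nothing below is replicated and no test between groups could be made. Both lines carry EWS-FLI1 and neither is a control for the other. Intervals are 95% exact intervals for counting error within these lists (Clopper-Pearson for shares, Poisson for counts per Mb). Peaks that lie close together share their source, which these intervals ignore. The lists give no read counts, and the depth of the libraries is unknown.

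H3K27me3 is the trimethylation of lysine 27 of histone H3 by Polycomb repressive complex 2, whose catalytic subunit is Ezh2 or Ezh1. The mark goes with gene silencing, it forms broad domains over genes of development, and the Hox clusters are its best-known large targets. H3K27ac is the acetylation of the same lysine and marks active promoters and enhancers. A single histone tail cannot carry both marks on that lysine, but neighbouring nucleosomes, the other allele or other cells can. EWS-FLI1 is the fusion of EWSR1 with the ETS factor FLI1 that drives Ewing sarcoma.

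Positions are in mm9, the build named in the submitters' processing notes, and the gene table used here is of GRCm38. Domains were therefore named by position, and genes were named only where their place in mm9 is general knowledge, with no annotation of that build behind it. By that knowledge, the domain of rank 1 lies at the HoxB cluster on chromosome 11, rank 5 at HoxD on chromosome 2, rank 46 at HoxA on chromosome 6 and rank 88 at Wnt6 and Wnt10a on chromosome 1. Hox genes encode homeodomain transcription factors that set position along the body axis, and Wnt6 and Wnt10a are secreted Wnt ligands. The RefSeq table places the miRNA genes Mir196a-1 and Mir10a between Hoxb13 and Hoxb1, Mir10b between Hoxd13 and Hoxd1, and Mir196b between Hoxa9 and Hoxa10. Their mature 5p sequences, from RefSeq (GRCm38.p6), are shown because these miRNA genes sit among the Hox genes of the clusters with a domain among the 200; the seed, bases 2 to 8, is in capitals.
mmu-miR-196a-5p: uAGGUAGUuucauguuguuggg
mmu-miR-196b-5p: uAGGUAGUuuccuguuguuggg
mmu-miR-10a-5p: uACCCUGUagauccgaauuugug
mmu-miR-10b-5p: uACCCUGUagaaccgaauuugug
Mature miR-196a-5p also comes from Mir196a-2, in HoxC. The 4 miRNAs fall into 2 seed groups, AGGUAGU for both miR-196 members and ACCCUGU for both miR-10 members, and each group has a member at HoxB and a member at another of these clusters.

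Polycomb domains in mammals lie mostly over CpG-rich promoters. For each of these clusters a RefSeq promoter window (GRCm38.p6, 250 bases before to 50 after the start of the gene, plus strand of the gene) is shown with every CG in capitals, a pair of letters that reads the same on both strands. The genes were picked as 1 per cluster after the domains were known, and the windows were matched by symbol and not placed on mm9. Those of Hoxa13 and Hoxd13 hold the most CG pairs of their clusters, whose medians are 17.5 for HoxA and 20 for HoxD.
Hoxb8: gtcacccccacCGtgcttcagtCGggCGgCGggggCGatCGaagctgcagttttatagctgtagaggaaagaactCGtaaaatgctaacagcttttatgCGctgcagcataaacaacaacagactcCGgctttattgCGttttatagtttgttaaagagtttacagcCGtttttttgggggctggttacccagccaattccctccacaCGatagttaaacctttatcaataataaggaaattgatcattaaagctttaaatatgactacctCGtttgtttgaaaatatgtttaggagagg
Hoxd13: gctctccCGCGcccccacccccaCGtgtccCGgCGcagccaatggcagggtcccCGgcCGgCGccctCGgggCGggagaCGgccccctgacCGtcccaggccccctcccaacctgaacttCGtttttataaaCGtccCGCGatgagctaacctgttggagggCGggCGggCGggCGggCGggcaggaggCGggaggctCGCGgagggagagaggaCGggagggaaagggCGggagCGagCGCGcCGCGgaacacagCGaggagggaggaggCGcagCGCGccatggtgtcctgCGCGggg
Hoxa13: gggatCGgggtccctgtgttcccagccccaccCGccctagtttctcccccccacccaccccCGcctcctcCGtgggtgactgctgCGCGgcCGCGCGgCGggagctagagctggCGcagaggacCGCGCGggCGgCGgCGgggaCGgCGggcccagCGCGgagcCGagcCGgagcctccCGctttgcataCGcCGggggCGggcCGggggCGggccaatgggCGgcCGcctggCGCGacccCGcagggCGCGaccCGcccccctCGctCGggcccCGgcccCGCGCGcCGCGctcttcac
The Hoxb8 window held 13 CG pairs, the Hoxd13 window 37 and the Hoxa13 window 45. Of all 32851 promoter windows, 37.9% held at least as many as Hoxb8, 5.58% at least as many as Hoxd13 and 1.93% at least as many as Hoxa13. The table had 23 windows for 21 Hox genes of HoxA, HoxB and HoxD, with a median of 15 CG pairs and a range of 4 to 45, beside a median of 7 over all windows. These counts describe the sequence and were not compared with the strength of the mark.

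The H3K27me3 peaks chose the domains, so their size is a description. The 200 domains, 4.25% of all joined domains, held 5717 H3K27me3 peaks and 37.4% of the length covered by H3K27me3 on these chromosomes, 6.15 of 16.4 Mb. Their median length was 55.9 kb (quartiles 37.8 and 88.1, range 16.9 to 389.9), and the median length of the other 4506 domains was 2.20 kb. Summed peak width had a median of 21.4 kb and ran from 14.5 to 204.8 kb. The domains held a median of 23.5 peaks (range 2 to 179). Of the 42 H3K27me3 peaks of 10 kb or wider on these chromosomes, 40 lay in the 200 domains. The values next to the limit were close: the 5 lowest of the 200 had 14.63, 14.57, 14.54, 14.51 and 14.48 kb of summed width, and the 5 domains next below them had 14.44, 14.42, 14.41, 14.39 and 14.35 kb.

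The domains ranged from nearly solid blocks to loose strings of peaks. H3K27me3 peaks covered a median of 44.9% of a domain's length (quartiles 33.0 and 61.0), and 44.5% of the summed length of all 200 domains. In 25 domains at least 75% was covered, and in 36 domains under 30%. The most solid was at chromosome 7, 138683848 to 138702344 (rank 133), 18.5 kb long with 2 peaks over 99.6% of it. The loosest was at chromosome 11, 35335736 to 35412400 (rank 200), 76.7 kb long with 26 peaks over 18.9% of it. Longer domains were covered less, with Spearman's rho of -0.54 across the 200 domains. That is a description, since length enters both measures and the limit on summed width leaves no short and loose domain. The highest H3K27me3 score in a domain, the authors' own value per peak, reached 3100 or more in 94 domains, the level at which scores in this list pile up, and stayed under 500 in 13.

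**Figure D1:**
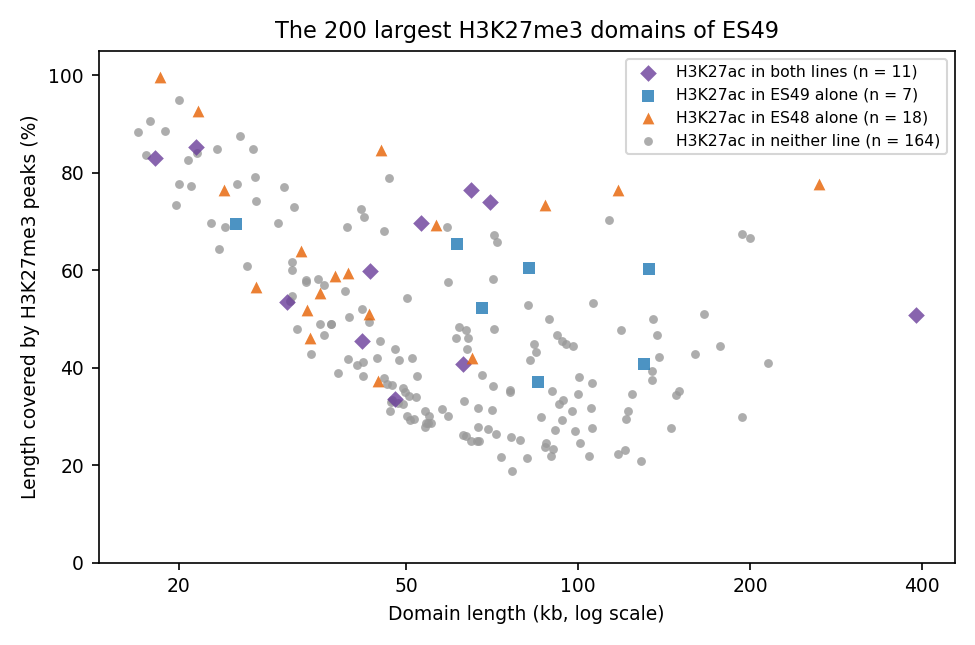
Length (kb, log scale) and share of the length covered by H3K27me3 peaks (%) of each of the 200 domains, with colour and shape for the H3K27ac peaks inside. The domains run from 16.9 to 389.9 kb and from 18.9 to 99.6% covered, and all 36 domains under 30% covered are among the 164 with no H3K27ac in either line.

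The 10 largest domains by summed width lay on 4 chromosomes. The HoxB domain (rank 1, chromosome 11, 95981446 to 96245101) was 263.7 kb long with 73 peaks over 204.8 kb, 77.7% of it, and held the widest H3K27me3 peak of the 200 domains, 35.3 kb. Rank 2 (chromosome 11, 118468037 to 118857900) was the longest domain, 389.9 kb with 179 peaks over 198.5 kb. Rank 3 (chromosome 5, 122323502 to 122522948) had 133.0 kb of summed width and rank 4 (chromosome 2, 164901852 to 165095169) had 130.3 kb. The HoxD domain (rank 5, chromosome 2, 74484650 to 74601971) was 117.3 kb long with 39 peaks over 89.8 kb, 76.5% of it. Rank 6 lay at chromosome 5, 35654682 to 35869416, with 88.1 kb of summed width. Ranks 7 and 8 lay on chromosome 11, at 85680075 to 85846197 and at 103916846 to 104050028, with 84.7 and 80.2 kb. Rank 9 was on chromosome 2 (33391602 to 33504945, 79.6 kb) and rank 10 on chromosome 9 (107244151 to 107420893, 78.7 kb). The 2 Hox domains were the most densely covered of these 10, and rank 6 the least, at 41.0%.

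The HoxA domain (rank 46, chromosome 6, 52165992 to 52218946) was shorter than those at HoxB and HoxD, 53.0 kb with 15 peaks over 36.9 kb. No domain of HoxC was among the 200. In the megabase of chromosome 15 that holds HoxC, the largest domain (102571886 to 102579280) had rank 633 and 5.96 kb of summed width. Whether that domain lies on the HoxC genes themselves was not determined.

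The 200 domains were concentrated on chromosomes 2, 5 and 11. Chromosome 2 held 42 of them, chromosome 11 held 42 and chromosome 5 held 27, together 111 of 200 (55.5%, 48.3 to 62.5). Of all joined domains 28.4% lay on these 3 chromosomes, of the next 200 domains by rank 38.5%, and the chromosomes make up 18.5% of the length spanned by peaks. Chromosome 11 had 3.54 of the 200 domains per 10 Mb, beside 0.830 over chromosomes 1 to 19. Chromosomes 1, 6, 18 and 19 had 3 of the domains each, chromosome 14 had 2 and chromosome 8 had 1. On chromosome 13, 9 of the 12 domains lay between 50 and 60 Mb. H3K27ac peaks were also denser on chromosomes 2, 5 and 11 than over all 19 chromosomes, at 18.1 against 12.0 per Mb in ES49 and 14.1 against 10.5 per Mb in ES48, and the part of this in the spread of the domains was not tested.

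**Figure D2:**
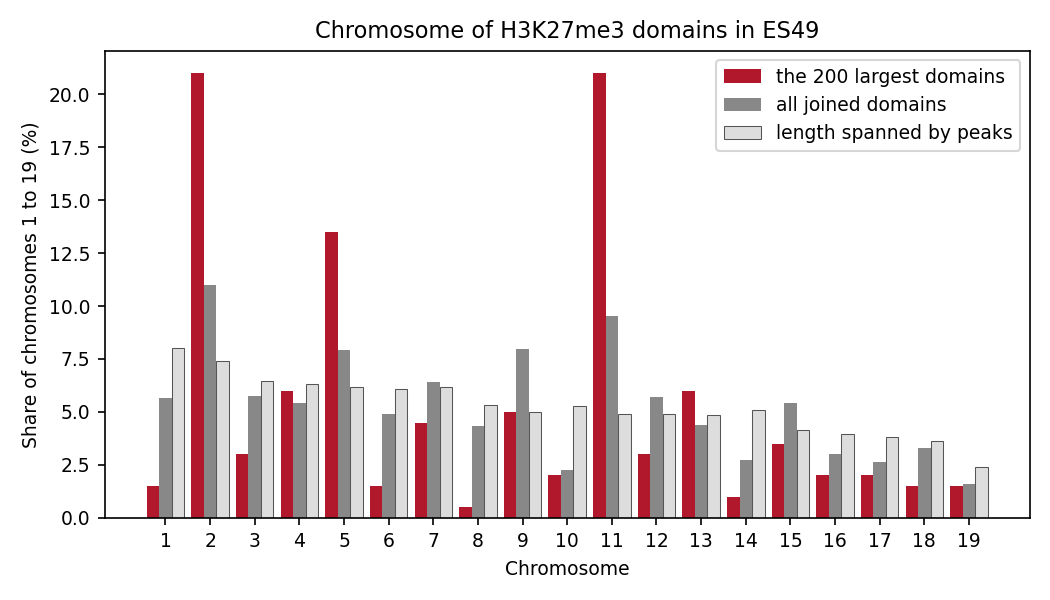
Share (%) of the 200 largest domains, of all joined domains and of the length spanned by peaks that lies on each of chromosomes 1 to 19. The bars of the 200 domains stand highest on chromosomes 2 and 11, at 21.0% each, where all joined domains have 11.01% and 9.52%.

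Acetylation inside the domains was sparse in both lines. H3K27ac was not used by the rule that chose the domains. The rule used ES49 H3K27me3, a mark of the same lysine. Low ES49 H3K27ac in the domains is therefore not independent of the choice. In ES49 18 of the 200 domains (9.0%, 5.42 to 13.9) held an H3K27ac peak, where 3.91% of all joined domains did. In ES48 29 of the 200 (14.5%, 9.93 to 20.2) held an H3K27ac peak, where 7.27% of all joined domains did. The 200 domains were also longer, and the part of length in these shares was not tested. Per length the order was the other way. The 200 domains had 2.75 ES49 H3K27ac peaks per Mb (1.95 to 3.78), against 7.36 per Mb (6.39 to 8.45) in the 4506 other domains. For ES48 H3K27ac the values were 4.42 per Mb (3.38 to 5.67) in the 200 domains and 13.6 per Mb (12.3 to 15.1) in the other domains. The next 200 domains by rank, the most similar in size, had 3.47 per Mb (2.15 to 5.30) for ES49. For ES48 they had 5.94 per Mb (4.16 to 8.23). Both intervals overlap those of the 200 domains. Any overlap counts, so peaks per Mb can run high for short domains, and the other domains had a median length of 2.20 kb. By covered length the gap was smaller. H3K27ac covered 0.291% of the 200 domains and 0.533% of the 4506 others in ES49, and 0.800% and 1.62% in ES48. The next 200 domains had 0.368% in ES49 and 1.09% in ES48. The 400 domains after those had 0.289% in ES49, close to the 200 domains, and 1.37% in ES48.

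**Figure D3:**
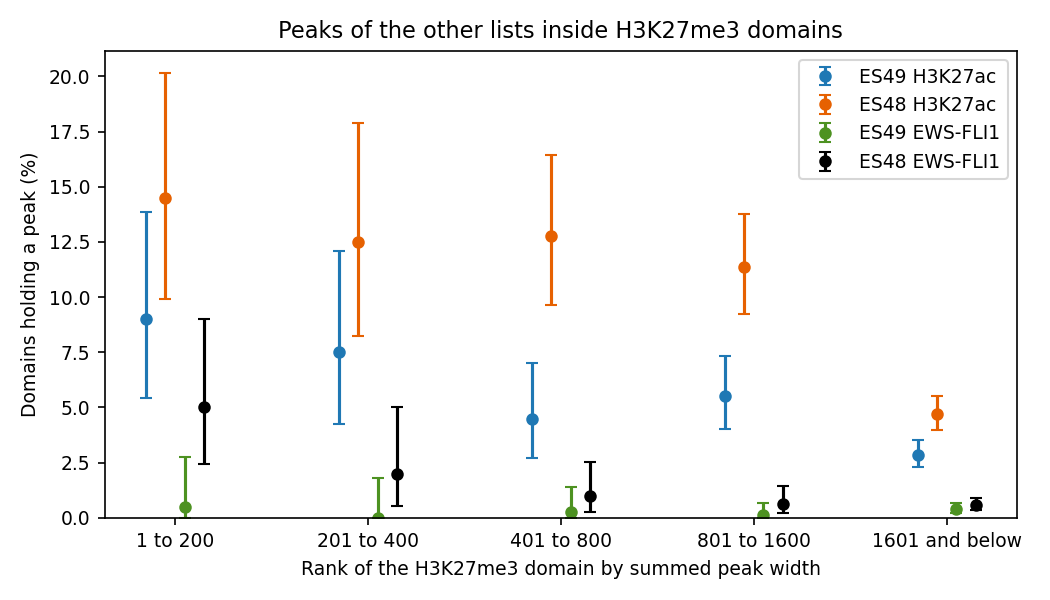
Share of H3K27me3 domains (%) that hold at least 1 peak of each other list, by the domains' rank in summed H3K27me3 width; bars are 95% Clopper-Pearson intervals. The 200 largest domains have 9.0% with ES49 H3K27ac, 14.5% with ES48 H3K27ac, 0.5% with ES49 EWS-FLI1 and 5.0% with ES48 EWS-FLI1.

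Compared with the rest of chromosomes 1 to 19, the 200 domains held fewer H3K27ac peaks per length in both lines. In ES49 the 2.75 peaks per Mb in the domains were 0.228 times the 12.1 per Mb outside them. In ES48 the 4.42 peaks per Mb in the domains were 0.419 times the 10.5 per Mb outside them. H3K27ac covered 0.291% of the domains against 1.46% of the rest in ES49, and 0.800% against 1.97% in ES48. On chromosomes 2, 5 and 11 alone the ratios were 0.134 in ES49 and 0.312 in ES48, and on the other 16 chromosomes they were 0.301 and 0.448, so both lines had fewer peaks per Mb in the domains within either set of chromosomes. With chromosomes X and Y included the ratio moved to 0.458 in ES49 and 0.631 in ES48. Only 1 sex-chromosome domain entered the 200 then, while the H3K27ac peaks inside rose from 38 to 73 in ES49 and from 61 to 88 in ES48. With the upper 50% of the H3K27ac lists by score the ratio moved to 0.132 in ES49 and 0.273 in ES48.

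The surroundings of the domains were acetylated. More than 25 kb inside a domain there were 0.583 ES49 H3K27ac peaks per Mb (0.120 to 1.70), and within 5 kb of an edge on the inside there were 5.0 (2.40 to 9.20). Within 5 kb on the outside there were 21.0 per Mb (15.1 to 28.4), and from 50 to 100 kb away 39.3 per Mb (36.2 to 42.6), above the 12.1 per Mb of all chromosomes outside the domains. ES48 had 1.17 peaks per Mb more than 25 kb inside and 9.50 (5.72 to 14.8) within 5 kb of an edge on the inside. On the outside ES48 had 18 per Mb (12.6 to 24.9) within 5 kb and 29.0 per Mb (26.4 to 31.9) from 50 to 100 kb. At the edge the density thus changed by a larger step in ES49 than in ES48, but the intervals of the lines overlapped on each side. The difference of the steps was not tested, and the edges are those of ES49 H3K27me3 alone. Within 5 kb of the edges of the next 200 domains, ES49 had 6.00 per Mb inside and 10.0 outside, and ES48 had 7.51 and 8.50. Around the next 200 domains by rank the densities from 50 to 100 kb away were 27.4 per Mb in ES49 and 23.1 in ES48. On the 16 chromosomes other than 2, 5 and 11, the 200 domains had 34.5 per Mb in ES49 and 24.7 in ES48 at that distance.

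**Figure D4:**
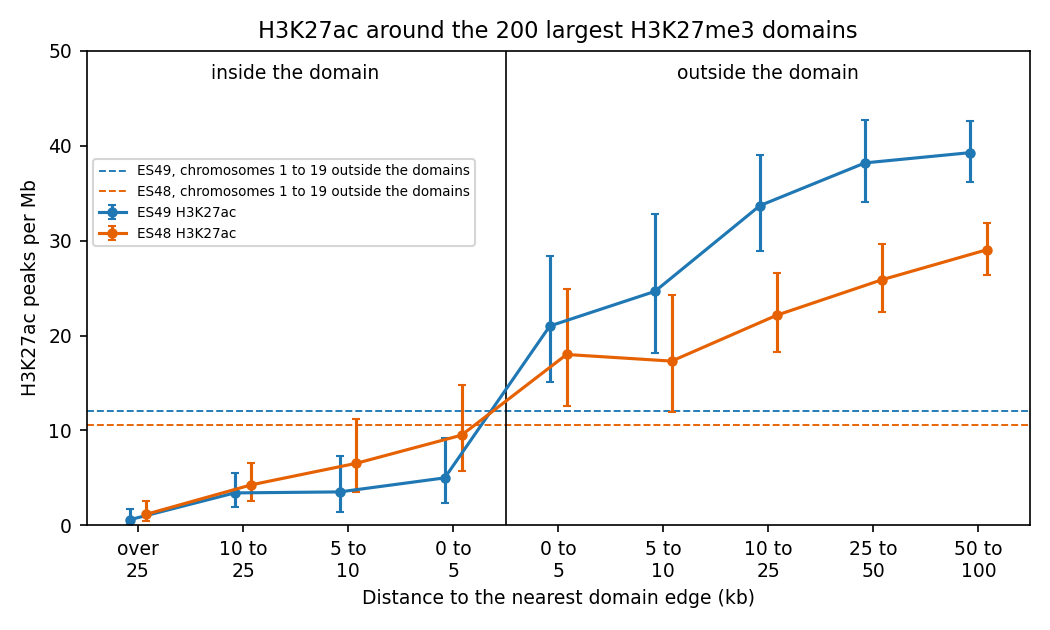
H3K27ac peaks per Mb by the distance of their midpoint from the nearest edge of the 200 domains (kb), inside the domains on the left and outside on the right, for ES49 and ES48; bars are 95% Poisson intervals and dashed lines are chromosomes 1 to 19 outside the domains. Densities are lowest more than 25 kb inside (0.583 in ES49 and 1.17 in ES48) and highest 50 to 100 kb outside (39.3 in ES49 and 29.0 in ES48).

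The nearest H3K27ac peak was a median of 27.2 kb from the 200 domains in ES49 and 25.7 kb in ES48, with overlap counted as 0. For the next 200 domains by rank the medians were close to these, 32.1 kb in ES49 and 32.8 kb in ES48, and for all 4506 other domains, most of them small, they were 78.2 kb in ES49 and 68.5 kb in ES48. In 23 of the 200 domains the nearest ES49 peak lay over 100 kb away, and in 24 the nearest ES48 peak did.

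Most domains had acetylation in neither line. Of the 200 domains 164 (82.0%, 76.0 to 87.1) held no H3K27ac peak of ES49 or ES48, 11 held peaks of both, 7 of ES49 alone and 18 of ES48 alone. Among all joined domains the shares were 91.2% for neither line, 2.4% for both, 1.51% for ES49 alone and 4.87% for ES48 alone. All these domains were defined by H3K27me3 of ES49 alone, so the lines do not enter these counts on equal terms. The domains without acetylation had a median of 41.7% of their length in H3K27me3 peaks, the 11 with both lines 59.9%, the 7 with ES49 alone 60.2% and the 18 with ES48 alone 61.6%.

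By median, the few H3K27ac peaks inside the domains were small and weak within their lists. Their highest score was 3100 in each line, and the widest were 11375 bp in ES49 and 21722 bp in ES48. The 38 ES49 peaks had a median width of 547.5 bp and a median score of 79.35, against 836 bp and 164.7 for all ES49 H3K27ac peaks of chromosomes 1 to 19. The 61 ES48 peaks had a median width of 1019 bp and a median score of 214.2, against 1485 bp and 554.5 in the whole ES48 list. Scores are the authors' own and were compared only within a list. Of the 38 ES49 peaks, 22 (57.9%) overlapped an ES48 H3K27ac peak, where 68.3% of the whole ES49 list did. Of the 61 ES48 peaks, 16 (26.2%) overlapped an ES49 H3K27ac peak, where 66.6% of the whole ES48 list did. Without the HoxA domain, whose 10 ES49 peaks all overlapped ES48 peaks, the shares were 12 of 28 (42.9%) in ES49 and 13 of 56 (23.2%) in ES48. In both lines the share inside the domains was below that of the whole list, as a count within single libraries and without a test. The domains were chosen by H3K27me3 of ES49 alone and hold few ES49 H3K27ac peaks. The low share of ES48 peaks that overlap an ES49 peak is therefore not independent of the choice.

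The acetylated length was concentrated in few domains. In ES49 H3K27ac covered 40.2 kb of the 200 domains, and the HoxA domain alone held 23.6 kb, 58.8% of it. In ES48 it covered 110.5 kb, of which the HoxA domain held 30.5 kb, 27.6%. Without the HoxA domain 16.6 kb were left in ES49 and 80.1 kb in ES48. Next in ES49 came chromosome 11, 97395419 to 97438647 (rank 81), with 4.58 kb in 6 peaks against 3.56 kb in ES48, and chromosome 11, 118902573 to 118923961 (rank 135), with 2.80 kb against 3.42 kb in ES48. Ranks 25 and 19, both on chromosome 11, followed with 1.26 and 1.19 kb in ES49. In ES48 rank 2 had 4.82 kb and rank 191 (chromosome 13, 99120888 to 99139078) had 4.78 kb, against 0.822 and 0.623 kb in ES49.

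The HoxA domain carried H3K27ac and H3K27me3 peaks over the same stretch. By general knowledge of mm9 this is the Hoxa9 to Hoxa13 side of the cluster. In ES49 10 H3K27ac peaks covered 44.6% of the domain, and 20.7 kb of them lay on H3K27me3 peaks of the same line, 56.2% of the H3K27me3 length there. The widest, 52173978 to 52185352 on chromosome 6, was 11375 bp with a score of 3100 and lay wholly within H3K27me3. In ES48 5 H3K27ac peaks covered 57.6% of the domain, the widest being 21722 bp (52170322 to 52192043, score 3100). ES49 acetylation ended 31.3 kb from the start of the domain, and beyond that point the domain held 2 ES48 H3K27ac peaks of 645 and 999 bp, both on ES49 H3K27me3. The files cannot tell whether the marks sit on the same chromosomes, on different alleles or in different cells.

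The HoxB and HoxD domains were close to free of acetylation. Neither held an ES49 H3K27ac peak. In ES48 3 small peaks covered 2.15 kb of the HoxB domain, 0.814% of it, with scores from 50.5 to 172.5. In ES48 2 peaks covered 1.18 kb of the HoxD domain, 1.0% of it, with scores of 51.8 and 136.6. All 5 lay wholly on ES49 H3K27me3 peaks.

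The Wnt6 and Wnt10a domain differed between the lines. It spans 39.5 kb (chromosome 1, 74815113 to 74854570) and was 59.4% covered by ES49 H3K27me3, with no ES49 H3K27ac peak. In ES48 6 H3K27ac peaks covered 14.9 kb, 37.7% of the domain, and 12.9 kb of that lay on places with H3K27me3 in ES49. The 2 widest of these peaks, at 74836118 to 74842080 and 74850392 to 74855886, both scored 3100. H3K27me3 of ES48 was not analysed here, so whether ES48 lacks the mark at this place is not known.

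**Figure D5:**
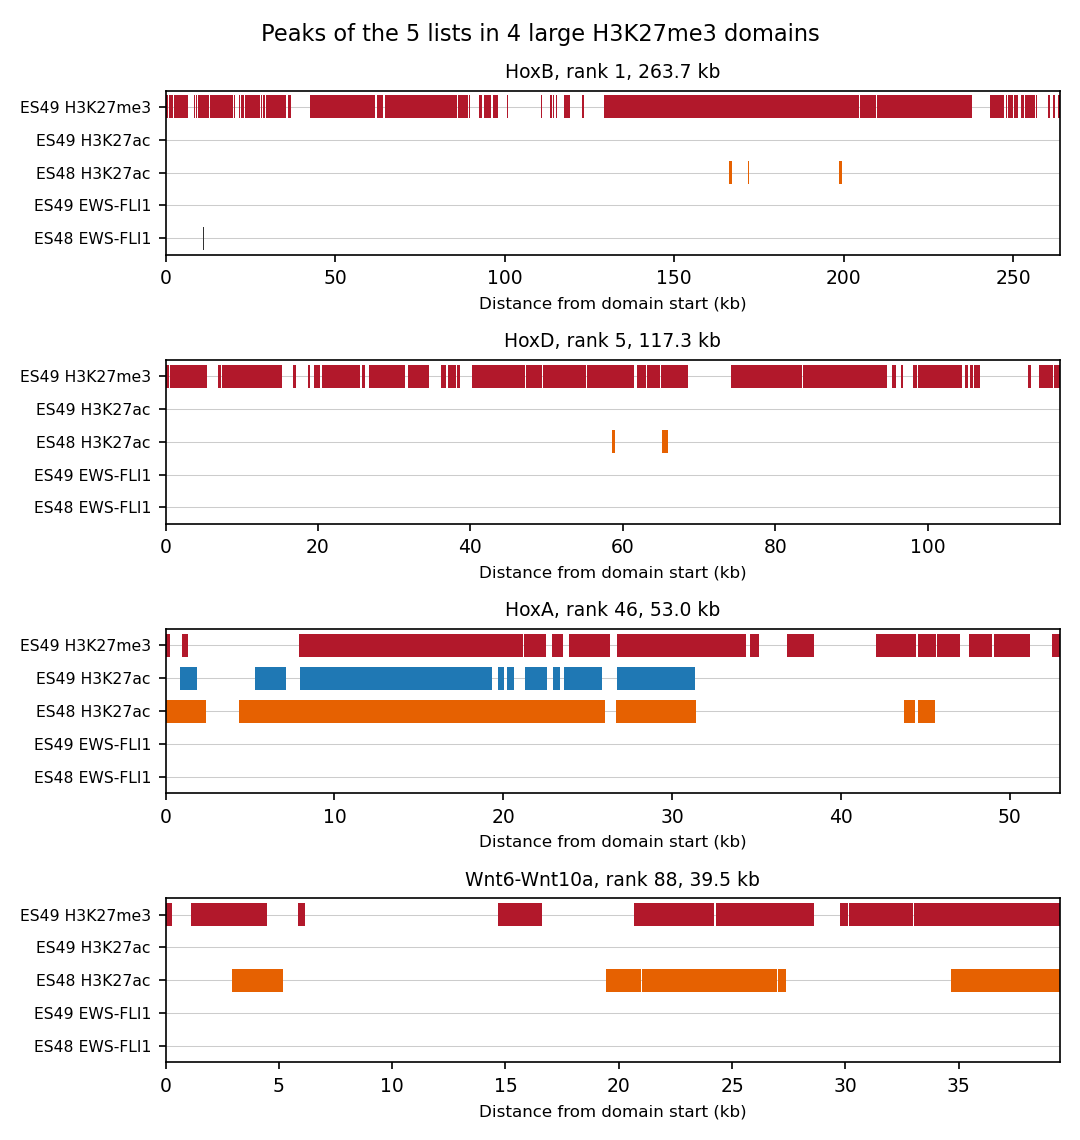
Peaks of the 5 lists as boxes along 4 of the domains, by distance from the start of the domain (kb); gene names are from general knowledge of mm9. HoxB and HoxD carry H3K27me3 with 0 ES49 H3K27ac peaks and 3 and 2 small ES48 peaks, HoxA carries both marks in its left part, and the Wnt6 and Wnt10a domain has 6 ES48 H3K27ac peaks and 0 of ES49.

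Among domains acetylated in ES48 and not in ES49, the next by covered length was at chromosome 2, 93010016 to 93047457 (rank 94), with 11.6 kb in 5 ES48 peaks, 30.9% of the domain. Rank 42 (chromosome 11, 96844302 to 96889500) had 4.37 kb in 5 peaks and rank 13 (chromosome 11, 118351973 to 118439516) had 3.86 kb in 2 peaks. Rank 71 (chromosome 11, 59047452 to 59112675) had 2.71 kb in 1 peak. The domains acetylated in ES49 and not in ES48 held less, among domains chosen by H3K27me3 of ES49 alone. Rank 19 (chromosome 11, 116773921 to 116904404) had the most, 1.19 kb in 2 peaks, and ranks 144, 8, 57 and 38 had 0.463, 0.445, 0.398 and 0.387 kb in 1 peak each.

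Where acetylation met the domains, it did not keep to the gaps between H3K27me3 peaks. Of the ES49 H3K27ac peaks in the domains 26 of 38 (68.4%, 51.3 to 82.5) touched an H3K27me3 peak, and of the ES48 peaks 56 of 61 (91.8%, 81.9 to 97.3) touched an H3K27me3 peak of ES49. By length 70.1% of ES49 acetylation and 70.2% of ES48 acetylation inside the domains lay on H3K27me3 peaks, which make up 44.5% of the domains. Without the HoxA domain the shares by length were 45.0% in ES49 and 66.5% in ES48, with 44.4% of the domain length in H3K27me3 peaks. By count, 18 of 28 ES49 peaks (64.3%, 44.1 to 81.4) and 51 of 56 ES48 peaks (91.1%, 80.4 to 97.0) touched an H3K27me3 peak without the HoxA domain. For ES49 the excess by length thus rested on the HoxA domain, and without it acetylation lay on H3K27me3 peaks about in proportion to their length. The share by count cannot show a preference in either line. A peak counts when any part of it touches an H3K27me3 peak, and no reference value was computed for that.

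Few of the domains held an EWS-FLI1 peak. Per length ES48 peaks were not scarcer there than in the rest of chromosomes 1 to 19. For ES49, 2 peaks in 1 domain are too few to tell. In ES49 1 of the 200 domains (0.5%, 0.0127 to 2.75) held EWS-FLI1 peaks, where 0.319% of all joined domains did. In ES48 10 of the 200 (5.0%, 2.42 to 9.0) did, where 0.871% of all joined domains did. Per length the 200 domains had 0.145 ES49 EWS-FLI1 peaks per Mb (0.0175 to 0.523) against 0.139 per Mb in the rest of chromosomes 1 to 19. For ES48 EWS-FLI1 the values were 0.796 per Mb (0.397 to 1.42) in the domains and 0.167 per Mb outside them. The next 200 domains by rank held 0 ES49 EWS-FLI1 peaks, with an upper bound of 0.609 per Mb, and 0.660 ES48 peaks per Mb (0.180 to 1.69), and these intervals overlap those of the 200 domains. Over all 4506 other domains there were 1.45 ES49 peaks per Mb (1.04 to 1.98) and 1.71 ES48 peaks per Mb (1.25 to 2.27), with 31 of the 40 ES49 peaks in the 3106 smallest domains. By length ES49 EWS-FLI1 covered 0.0524% of the 200 domains, from 2 peaks in 1 domain. It covered 0.0790% of the other domains and 0.00550% of chromosomes 1 to 19 outside the 200 domains. On chromosomes 2, 5 and 11 the ES48 values were 0.939 per Mb in the domains and 0.393 outside, and 8 of the 10 domains lay there. On the other 16 chromosomes they were 0.567 per Mb in the domains, from 3 peaks, and 0.116 outside. For ES49 the 111 domains on chromosomes 2, 5 and 11 held 0 EWS-FLI1 peaks, against 0.155 per Mb outside. On the other 16 chromosomes ES49 had 0.378 per Mb in the domains, from 2 peaks, and 0.135 outside.

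The EWS-FLI1 peaks in the domains had low scores, as most of the ES48 list did. Of the whole EWS-FLI1 lists, 346 of 681 ES49 peaks and 204 of 614 ES48 peaks lay on X and Y. On chromosomes 1 to 19, 18.5% of ES49 EWS-FLI1 peaks overlapped an ES48 one, and 17.1% of ES48 peaks overlapped an ES49 one. Whether the peaks in the domains reflect binding was not tested. All 11 ES48 peaks scored between 51.9 and 78.7 with a median of 58.3, beside a median of 57.5 for the whole ES48 list on these chromosomes, of which 89.3% scored under 100. Their median width was 181 bp, 7 of the 11 touched an H3K27me3 peak of ES49, and none overlapped H3K27ac of ES48 or EWS-FLI1 of ES49. The HoxB domain held a 104 bp peak (95992412 to 95992515, score 59.3), and ranks 4, 15, 18, 19, 30, 96, 106 and 146 held 1 peak each. Both ES49 peaks lay in the domain of rank 112 (chromosome 1, 90126096 to 90153408), at 90127557 to 90132671 (5115 bp, score 69.0) and 90134243 to 90136363 (2121 bp, score 54.0). They were wide for this list, whose median width on these chromosomes is 293 bp, and lay almost wholly on H3K27me3. The same domain held 2 ES48 EWS-FLI1 peaks of 450 and 440 bp at other places in it, and within 500 kb of it neither line had a further EWS-FLI1 peak.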

How the data were processed

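Of the 6 ChIP-seq samples, each a single library, 5 have a peak list that was used, and input is not analysed here. Reads were handled with Bowtie 1.1.1 and SAMtools 1.2 on mm9, per the submitters' processing notes, which give no roles. The deposited lists give chromosome, start, end, a peak name and the authors' peak score; the names point to a MACS program, while its version, settings and control were not stated in those notes or files. Scores were compared only within a list, and depth is unknown. Starts were read as 0-based and are printed 1-based. Peaks were joined at gaps under 12500 bp, and other peaks counted as inside a domain when they shared at least 1 bp with it. Named regions are the 10 largest domains, those at Hox clusters, the 5 with most H3K27ac per line and per line alone, those with EWS-FLI1, and ranks around the limit of 200. The Wnt6 and Wnt10a name was added after the values were seen. The domains and lists were chosen with earlier results of these data known. Joining and overlap recovered every planted domain in 20 of 20 simulated runs. Alternatives changed the joining distance, ranking, score limits, overlap, number of domains and chromosomes. Computations ran in pandas 2.3.3 with scipy 1.17.1 and numpy 2.4.6 under Python 3.11.15, and plots in matplotlib 3.10.9.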

Additional observations from a re-analysis of the deposited data

How the results depend on the processing

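Of 132 values, 12 results under 11 alternatives, 91 stayed within 1.5 times (shares of domains) or within the 95% counting interval (other values) of the reported ones. No paired analysis was possible because each group is 1 library and no result comes from a test. The cause of the shifts below was not tested beyond what each setting changes. Of the 200 domains, 146 overlapped a domain of the new set with joining under 5 kb, 191 under 25 kb, 137 when ranked by length, 161 by summed score and 165 with the upper 50% of H3K27me3 peaks.

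Median length was 29.7 kb joined under 5 kb, 99.3 kb under 25 kb, 47.7 kb ranked by summed score, 33.3 kb with the upper 50% of H3K27me3 peaks, 86.7 kb for the 100 highest and 39.1 kb for the 400 highest. Median covered share was 68.004% under 5 kb, 31.9% under 25 kb, 30.1% by length, 49.3% by summed score and 55.6% with the upper 50% of H3K27me3 peaks. The share of domains with H3K27ac was 16.5% in ES49 and 23.5% in ES48 under 25 kb, and 3.0% and 6.5% with the upper 50% of the other lists, where domains with ES48 H3K27ac and none of ES49 were 4.5%. The share with ES49 EWS-FLI1 was 0% by length, by summed score, with the upper 50% of the other lists and for the 100 highest, 0.25% for the 400 highest and 1.0% with chromosomes X and Y, where 1 sex-chromosome domain, of rank 47, entered. The share with ES48 EWS-FLI1 was 8.0% under 25 kb and 1.0% with the upper 50% of the other lists.

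The length covered by H3K27ac in ES49 was 0.429% under 5 kb, 0.192% with the upper 50% of the other lists, 0.552% with X and Y and 0.120% without the HoxA domain, an alternative chosen after seeing the data. In ES48 it was 1.2% under 5 kb, 0.548% by length, 1.13% with the upper 50% of H3K27me3 peaks, 0.546% with the upper 50% of the other lists, 1.103% with X and Y and 0.582% without the HoxA domain. The ratio of H3K27ac peaks per Mb in the domains to the rest was 0.132 in ES49 and 0.273 in ES48 with the upper 50% of the other lists, and 0.458 and 0.631 with X and Y. In ES48 it was also 0.622 under 5 kb, 0.292 by length and 0.586 with the upper 50% of H3K27me3 peaks. The ratio stayed below 1 in both lines under all 11 alternatives.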

Other observations

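Some of the large domains lay near each other. Of the 200 domains, 71 lay in 30 groups of at least 2 domains less than 100 kb apart. No such count was made for other domains, so this number has no reference value. The largest group held 4 domains at chromosome 4, 153694819 to 154168689, ranks 43, 55, 60 and 80, with 128.0 kb of summed H3K27me3 width and no H3K27ac peak of either line. The HoxB domain and ranks 44 and 150 formed a group of 443.3 kb (chromosome 11, 95981446 to 96424751) that held 0 ES49 and 3 ES48 H3K27ac peaks. Ranks 2, 13 and 135 formed another on the same chromosome, 118351973 to 118923961, with 281.1 kb of summed width and 6 H3K27ac peaks in each line. A further group, on chromosome 5 (35449481 to 35869416, ranks 6, 79 and 190), held none in either line.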
